A study of Mus musculus with 6 samples.

Results

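The circadian clock was described through 10 genes, Per1, Per2, Per3, Ciart, Cry1, Cry2, Arntl, Clock, Nr1d1 and Dbp, chosen by symbol from the 19938 genes that had an array feature annotated to a single symbol. Gene expression had been measured in retinae of newborn mice (postnatal day 0, C57BL/6NTac background), 3 Meg2 knockout and 3 wild type, 1 whole-transcript array each. Meg2 is the tyrosine phosphatase made from the Ptpn9 gene. Each gene was read by its transcript cluster, a group of probes that covers a transcript, and where a gene had more than 1 the brightest over the 6 arrays was taken. Only Ciart had a second cluster, so brightness chose between clusters for that gene alone. Values are normalised log2 signals, in which a difference of 1 is a doubling. Per the labels, pups were genotyped and the 2 retinae of 1 animal were combined for each array. The labels call the mutants Meg2 knockout mice and name no allele, no treatment and no time of day of dissection.

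The clock is a feedback loop of transcription. The proteins of Arntl (also called BMAL1) and Clock pair and bind E-boxes in DNA, where they activate the Per, Cry, Ciart, Nr1d1 and Dbp genes. PER and CRY proteins then enter the nucleus and silence their own activators, and NR1D1 (REV-ERB alpha) represses Arntl through ROR elements, while DBP acts through D-boxes. In adult mammals the retina holds such a clock of its own, which paces functions such as dopamine release. Per1 also responds to other signals, glucocorticoids and light-evoked cAMP and calcium signalling among them.

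Ptpn9 itself read 9.31, 9.58 and 9.28 on the knockout arrays, against 10.05, 9.93 and 9.94 on the wild-type arrays (difference -0.58, SE 0.087). Median log2 signals of the 6 arrays ran from 7.84 to 7.91, and the number of arrays limits the precision of every comparison. The labels number the samples of each genotype 1 to 3 and do not say what the numbers mark. The titles also carry tags from P1 to P6, in which the knockout and wild-type sample of a number follow each other. What these tags mark is not stated either. Arrays of the same number departed together from their group means. The main fit of the genotype difference ignores the numbers, and a fit with the number as a block is given as an alternative. Unless the block is named, the SE and p of a genotype difference come from the fit without it. Xist, transcribed in females, read 12.58, 12.54 and 6.26 on knockout arrays 1, 2 and 3 and 12.73, 12.54 and 6.52 on the wild-type arrays. The Y-linked Eif2s3y read 5.08, 7.66 and 10.03 on the knockout arrays, against 5.49, 7.76 and 9.39 on the wild-type arrays. Both arrays of number 2 thus carried both signals, although the labels give 1 animal per array, and differences between numbers cannot be told apart from differences in sex. Markers of retinal progenitors fixed as Rax, Pax6, Sox2, Ccnd1 and Sfrp2 had mean log2 signals from 11.32 to 13.97. The hypothalamic and pineal markers Avp, Vip, Aanat and Tph1 had means from 5.86 to 7.64, all below the median of 8.51 over named clusters.

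The start regions of the clock genes were searched for the elements through which the loop is known to act. RefSeq windows of GRCm38.p6, from 250 bases before to 50 after an annotated start, were held for 9 of the 10 genes, in 13 windows; Per2 had none. Those of Per1, Per3, Ciart and Nr1d1 are shown because the results below turn on these genes, and that of Cry1 because it held 2 matches. Capitals mark matches on either strand to the E-box CACGTG, the E'-box CACGTT, whose other strand reads AACGTG, the D-box letters TTATGNAA and the ROR half-site AGGTCA, whose other strand reads TGACCT.
Per1, chr11:69098699-69098998, plus strand: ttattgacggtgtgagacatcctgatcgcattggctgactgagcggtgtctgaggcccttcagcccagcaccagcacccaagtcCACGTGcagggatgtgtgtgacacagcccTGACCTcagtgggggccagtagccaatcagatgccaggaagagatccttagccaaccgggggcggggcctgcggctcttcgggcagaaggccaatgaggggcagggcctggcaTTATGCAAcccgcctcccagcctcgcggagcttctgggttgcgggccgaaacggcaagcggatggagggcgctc
Per3, chr4:151044616-151044915, minus strand: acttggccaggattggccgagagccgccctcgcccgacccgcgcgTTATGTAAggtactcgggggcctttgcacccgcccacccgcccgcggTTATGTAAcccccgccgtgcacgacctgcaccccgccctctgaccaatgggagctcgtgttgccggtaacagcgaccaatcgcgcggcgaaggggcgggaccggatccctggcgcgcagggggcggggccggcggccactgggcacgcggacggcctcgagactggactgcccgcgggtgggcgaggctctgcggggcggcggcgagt
Ciart, chr3:95882179-95882478, minus strand: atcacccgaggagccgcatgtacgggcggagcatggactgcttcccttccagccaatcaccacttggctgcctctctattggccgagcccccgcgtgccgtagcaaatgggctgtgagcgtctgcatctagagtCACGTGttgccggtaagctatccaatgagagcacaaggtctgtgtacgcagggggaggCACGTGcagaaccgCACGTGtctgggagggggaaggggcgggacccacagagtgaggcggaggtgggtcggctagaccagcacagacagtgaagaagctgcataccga
Cry1, chr10:85185005-85185304, minus strand: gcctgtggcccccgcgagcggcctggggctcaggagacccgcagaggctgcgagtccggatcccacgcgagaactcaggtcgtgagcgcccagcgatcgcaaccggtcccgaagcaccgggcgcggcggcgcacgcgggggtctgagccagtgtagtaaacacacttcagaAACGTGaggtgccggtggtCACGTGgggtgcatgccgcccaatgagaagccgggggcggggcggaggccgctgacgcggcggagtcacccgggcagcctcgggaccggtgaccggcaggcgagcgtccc
Nr1d1, chr11:98775328-98775627, minus strand: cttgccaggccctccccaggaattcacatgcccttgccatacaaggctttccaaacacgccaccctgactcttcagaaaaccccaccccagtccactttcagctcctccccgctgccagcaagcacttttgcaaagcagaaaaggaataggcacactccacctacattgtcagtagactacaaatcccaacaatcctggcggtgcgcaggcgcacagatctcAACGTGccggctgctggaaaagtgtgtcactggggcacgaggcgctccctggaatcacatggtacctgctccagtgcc

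The Ciart window held 3 E-boxes, whose first bases lay 116, 58 and 44 bases before the start. Per1 held 1 E-box at 166 bases before this start, a TGACCT at 137 and a D-box match at 24. Its other annotated start had no match to these letters. Per3 held 2 copies of TTATGTAA, at 205 and 158 bases before the start, and no E-box. Cry1 held an E-box at 60 and an E'-box at 79 bases before the start, and Cry2 and Nr1d1 held 1 E'-box each, at 166 and 28. The second Arntl window held an AGGTCA beginning 32 bases after the start, and 1 of the 3 Clock windows held TGACCT. The Dbp window had no match, and no motif matches overlapped. Of all 32851 windows of this length, 7.15% held an E-box, 4.68% an E'-box, 3.38% a D-box match and 16.3% a ROR half-site. In the clock gene windows these counts were 3, 3, 2 and 3 of 13. These are matches of letters and not measured binding.

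The first comparison asked whether clock gene signal differed between knockout and wild-type retina. Of the 10 genes 5 lay higher and 5 lower in the knockout on average, with a median difference of -0.0064 on the log2 scale, against 0.0012 over all 23410 named clusters. None passed correction over all named clusters (limma, adjusted p = 0.9995 for each), and 0% of all named clusters did. At an unadjusted p under 0.05 limma gave 1 clock gene, Per3, against 3.43% of all named clusters. With the replicate number as a block 3 clock genes had an unadjusted p under 0.05, Per1, Per3 and Ciart, against 8.81% of all named clusters. For Ciart this holds for the brighter cluster, and the dimmer one had an unadjusted p of 0.736 in the same fit (limma). After correction 0 clock genes passed in that fit, against 0.00427% of all named clusters. The sign of the difference was the same in all 3 numbers for 5 of 10 clock genes and for 32.4% of all named clusters.

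**Figure D1:**
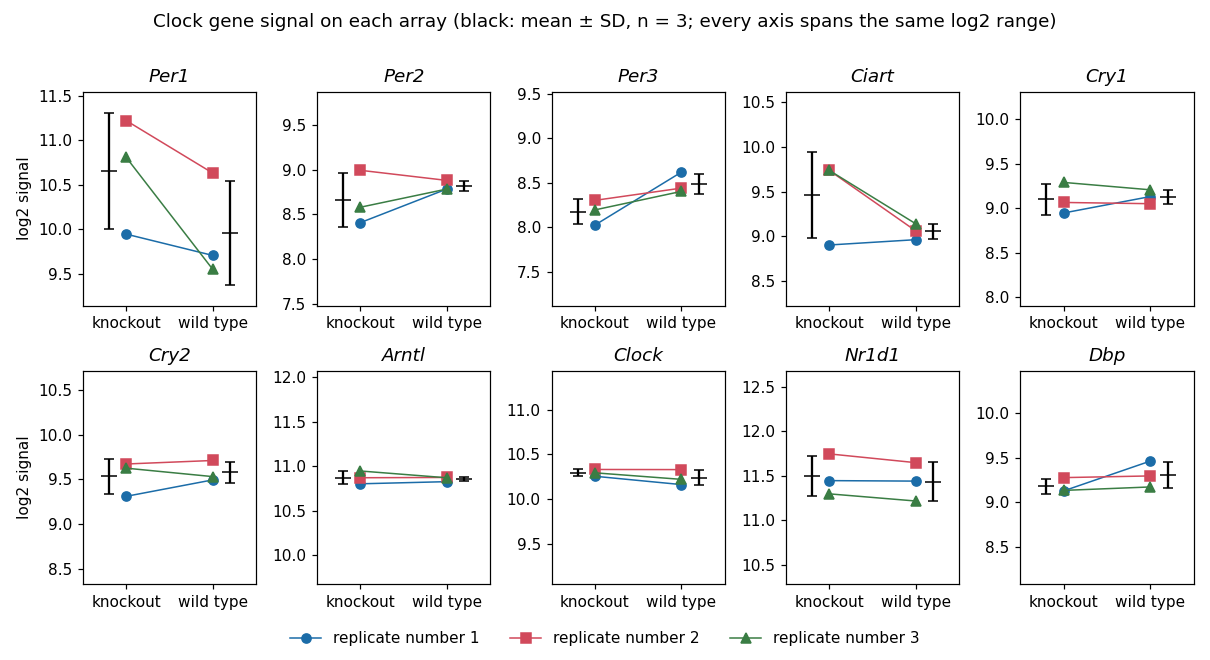
Log2 signal of each clock gene on each array, knockout at the left and wild type at the right of each panel; lines join arrays of the same replicate number, and black bars give the mean ± SD (n = 3). Per1 and Ciart (brighter cluster) spread most, Per3 is the gene whose genotypes do not overlap, and Arntl and Clock are nearly flat.

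The activators hardly varied. Arntl (cluster 10556463) read 10.80, 10.87 and 10.95 on the knockout arrays, against 10.83, 10.87 and 10.87 on the wild-type arrays. Clock (cluster 10530733) read 10.26, 10.33 and 10.29 on knockout arrays and 10.16, 10.33 and 10.22 on wild-type arrays. The genotypes overlapped for both genes. The mean of Arntl was 10.87 ± 0.072 on knockout and 10.86 ± 0.026 on wild-type arrays (SD, n = 3), a difference of 0.016 (SE 0.061), or -0.020 without knockout array 3. Clock differed by 0.056 (SE 0.064), or by 0.018 without wild-type array 1 and 0.10 without wild-type array 2. Over all 6 arrays Arntl spanned 0.14 and Clock 0.17, less than the median span of 0.24 over named clusters.

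Per1, a repressor that is induced early by outside signals, spread most of the 10. Its cluster (10377439) read 9.95, 11.22 and 10.81 on the knockout arrays, against 9.71, 10.63 and 9.55 on the wild-type arrays. Knockout arrays 2 and 3 stood above all wild-type arrays, while knockout array 1 lay within their range, and in each number the knockout array was the higher. The mean was 10.66 ± 0.65 on knockout and 9.96 ± 0.58 on wild-type arrays (SD, n = 3). The difference of 0.69 (SE 0.34), or 1.62-fold, had an unadjusted p of 0.0754 in limma. With the block the SE was 0.17, the unadjusted p 0.00512 and the adjusted p 0.514 (limma). By number the knockout excess was 0.24, 0.59 and 1.26 for 1, 2 and 3, and leaving out single arrays gave differences from 0.41 without knockout array 2 to 1.05 without knockout array 1. Without number 2 in both genotypes it was 0.75.

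Per3, the least essential Per gene for rhythm in mice, was the clock gene whose genotypes did not overlap. It read 8.03, 8.30 and 8.20 on the knockout arrays, against 8.62, 8.44 and 8.40 on the wild-type arrays (cluster 10518781). Every knockout array lay below every wild-type array, which held for 1 of the 10 clock genes and for 8.43% of all named clusters. The mean was 8.17 ± 0.14 on knockout and 8.49 ± 0.12 on wild-type arrays (SD, n = 3). The difference was -0.31 (SE 0.088), so the knockout signal was 0.805 of wild type, with an unadjusted p of 0.00645 in limma without the block and 0.011 with it. By number it was -0.59, -0.14 and -0.21, and without number 2 in both genotypes -0.40. The other 9 clock genes had a mean above the median signal of named clusters, which Per3 did not. For Ciart this rests on the brighter of its 2 clusters, as the dimmer one had a mean of 8.16, below the median of 8.51.

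Per2, a core repressor, read 8.41, 8.99 and 8.58 on the knockout arrays, against 8.79, 8.88 and 8.78 on the wild-type arrays (cluster 10356601). The knockout arrays lay on both sides of the wild-type ones. Its mean was 8.66 ± 0.30 on knockout and 8.82 ± 0.055 on wild-type arrays (SD, n = 3), a difference of -0.16 (SE 0.13). Single arrays moved it from -0.32 without knockout array 2 to -0.030 without knockout array 1. Without number 2 in both genotypes it was -0.29 (limma, unadjusted p = 0.0122, adjusted p = 0.999).

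Ciart (also called Chrono), a repressor that binds the ARNTL protein, was read by 2 clusters that did not move alike. The brighter one (cluster 10373452) read 8.90, 9.74 and 9.74 on the knockout arrays, against 8.96, 9.06 and 9.14 on the wild-type arrays. Knockout arrays 2 and 3 thus stood about alike and above all the others, and knockout array 1 was the lowest of the 6. Its mean was 9.46 ± 0.48 on knockout and 9.05 ± 0.089 on wild-type arrays (SD, n = 3). The difference of 0.41 (SE 0.20) had an unadjusted p of 0.0719 in limma, and of 0.0215 with the block. Without knockout array 1 the difference was 0.69, and without knockout array 2, without knockout array 3 or without number 2 in both genotypes it was 0.27. The dimmer cluster (10500272) read 8.07, 8.18 and 8.27 on the knockout arrays, against 8.12, 8.33 and 7.97 on the wild-type arrays, a difference of 0.031 (SE 0.097). By identifier the dimmer cluster stands among genes of chromosome 3, Ecm1 and Prpf3 among them, where the Ciart window printed above lies. The brighter one stands among genes of chromosome 10, such as Erbb3 and Pa2g4, while the annotation gives both the same Ciart accessions. Which of the 2 reads Ciart transcripts was not tested. Statements on Ciart elsewhere use the brighter cluster unless the dimmer one is named, and so carry this doubt.

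The Cry genes encode repressors that block the activator pair. Cry1 (cluster 10371400) read 8.95, 9.07 and 9.29 on the knockout arrays, against 9.13, 9.05 and 9.21 on the wild-type arrays, a difference of -0.029 (SE 0.091). Cry2 (cluster 10485170) read 9.31, 9.67 and 9.63 on knockout arrays and 9.49, 9.71 and 9.53 on wild-type arrays, a difference of -0.043 (SE 0.10). Genotypes overlapped in both genes. The Cry1 difference was 0.048 without knockout array 1 and 0.0096 without wild-type array 3, and that of Cry2 was 0.070 without knockout array 1 and 0.023 without wild-type array 2, so neither had a stable sign.

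Nr1d1, the nuclear receptor that represses Arntl, differed little between genotypes and more between numbers. It read 11.45, 11.75 and 11.30 on the knockout arrays, against 11.44, 11.65 and 11.22 on the wild-type arrays (cluster 10390691). In both genotypes array 2 was highest and array 3 lowest. The difference was 0.061 with an SE of 0.13 without the block and 0.047 with it, and it was -0.063 without knockout array 2 and -0.048 without wild-type array 3. Dbp, an output gene of the loop, read 9.13, 9.28 and 9.13 on the knockout arrays, against 9.46, 9.30 and 9.17 on the wild-type arrays (cluster 10553092). Its difference of -0.13 (SE 0.084) was widest in number 1, at -0.33, and without wild-type array 1 it was -0.054.

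**Figure D2:**
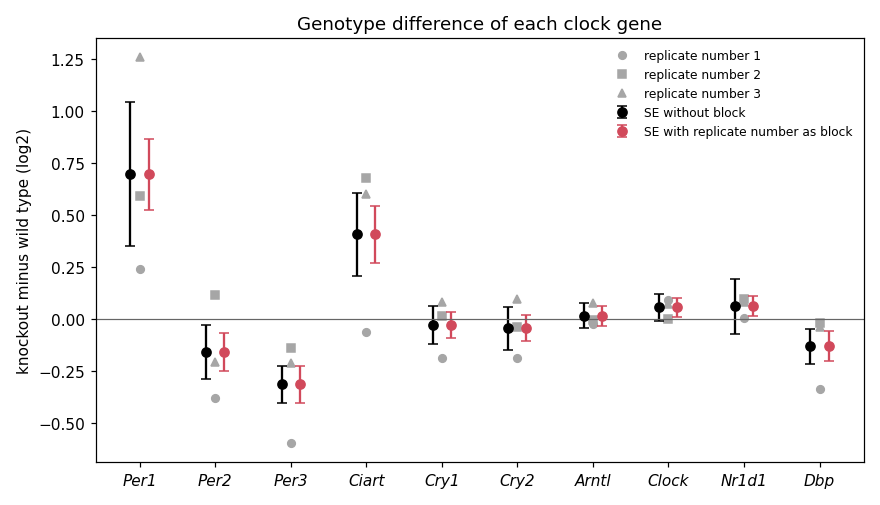
Knockout minus wild-type log2 difference of each clock gene, with the moderated SE without (black) and with (red) the replicate number as a block; grey symbols give the difference within each number. Per1 lies above 0 and Per3 below 0 in all 3 numbers, and the difference of Nr1d1 is small beside the SE without the block.

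The second question was how far the clock genes varied between replicate numbers. The numbers accounted for a median of 62.1% of each clock gene's sum of squares over the 6 arrays, near the 58.1% over all named clusters, so a large share between numbers was common on these arrays. In absolute terms the 3 number means spanned a median of 0.25 for the clock genes and 0.13 for all named clusters. For the other gene lists and cell type markers fixed for the report this median ran from 0.11 for clock modifiers to 0.24 for photoreceptor precursor markers. A span like that of the clock genes was thus not particular to them. An unadjusted p under 0.05 for number, with genotype in the model, was found for 5 of 10 clock genes and 23.2% of all named clusters (limma, moderated F test). After correction 0 of the 10 passed, against 0.0128% of all named clusters. The order of the 3 numbers was the same in both genotypes for 4 of 10 clock genes and for 32.1% of all named clusters. Of the 10 clock genes 9 lay above the median signal, Ciart by its brighter cluster only. Among clusters above the median signal 4067, and 6 of the 9 clock genes tested there, had an unadjusted p under 0.05 for number (limma F). Among all 23410 named clusters the count was 5427. The filter tests fewer clusters, so the smaller count is a higher share than the 23.2% over all named clusters.

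Nr1d1 was the gene that followed the number most closely, with 96.0% of its sum of squares between numbers and 2.79% between genotypes. Number 2 exceeded number 3 by 0.44 and number 1 by 0.25 (SE 0.058), while the arrays of a number differed by at most 0.098 (limma F, unadjusted p = 0.000527, adjusted p = 0.138). Per1 had its number means at 9.83, 10.93 and 10.18 for 1, 2 and 3, and here the arrays of number 3 differed by more than the number means did (limma F, unadjusted p = 0.00369, adjusted p = 0.138). With a variance trend the adjusted p was 0.00649 for Nr1d1 and 0.0239 for Per1, and among clusters above the median signal 0.0201 and 0.0274 (limma F). With the variance trend 991 of the 23410 named clusters passed correction, against 3 of the 23410 without it. Among clusters above the median signal, which are fewer, 1106 did. Both settings thus raised the share of all clusters that passed, and not that of the clock genes alone. Without number 2 in both genotypes the adjusted p was 0.221 for Nr1d1 and 0.345 for Per1. Cry2, Ciart and Per2 also had an unadjusted p under 0.05, at 0.0215, 0.0356 and 0.0456 (limma F). The dimmer Ciart cluster had an unadjusted p of 0.328 (limma F). Per3 had 2.54% of its sum of squares between numbers and 69.1% between genotypes, the reverse of Nr1d1.

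**Figure D3:**
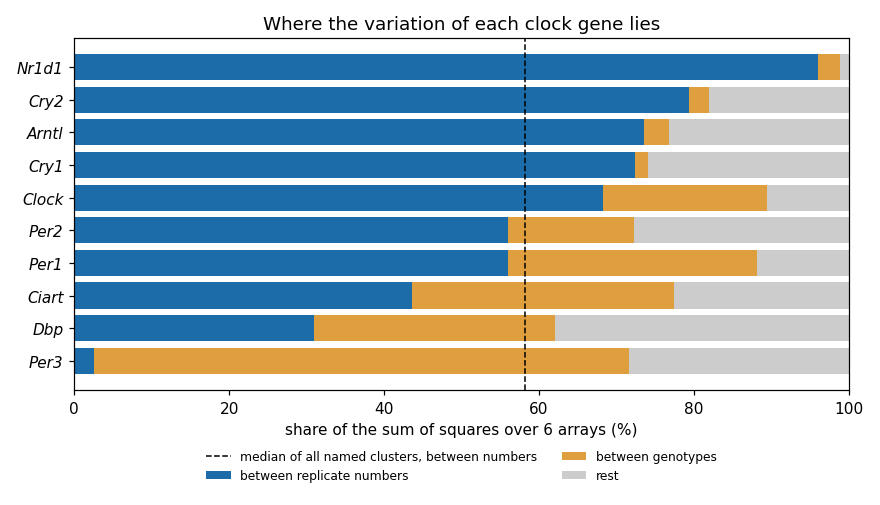
Share of each clock gene's sum of squares over 6 arrays that lies between replicate numbers (blue), between genotypes (orange) and in the rest (grey), in percent; the dashed line is the median share between numbers over all named clusters, 58.1%. Nr1d1 lies at 96.0% and Per3 at 2.54% between numbers.

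The other genes of the loop and its surroundings were described from fixed lists. Of 8 measured loop factors 0 had an unadjusted p under 0.05 without the block, with a median difference of 0.0065. Bhlhe40, a repressor that competes for E-boxes, read 7.64, 7.57 and 8.12 on the knockout arrays, against 7.51, 7.47 and 7.51 on the wild-type arrays, so knockout array 3 stood apart. The difference of Bhlhe40 was 0.28 (SE 0.13), with an unadjusted p of 0.0288 with the block, the 1 loop factor under 0.05 in that fit (limma, adjusted p = 0.542). Tipin and Timeless, partners at the replication fork, differed by 0.052 (SE 0.096) and -0.065 (SE 0.073), and Rora, an activator of Arntl, by -0.061 (SE 0.072). Of 10 measured modifiers of clock proteins, 0 had an unadjusted p under 0.05. Among them Usp2, a deubiquitinase under clock control, read 9.47, 9.67 and 10.10 on knockout arrays and 9.53, 9.52 and 9.54 on wild-type arrays, so that here too knockout array 3 was highest (difference 0.22, SE 0.14). Sirt1, a deacetylase, differed by 0.097 (SE 0.080), the demethylase gene Kdm5a by 0.035 (SE 0.083) and the F-box gene Fbxl21 by 0.057 (SE 0.074).

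Of 9 measured clock outputs 1, Nfil3, had an unadjusted p under 0.05. Nfil3 encodes a repressor that opposes DBP at D-boxes, and its 9.45, 9.46 and 9.54 on the knockout arrays lay above the 9.29, 9.42 and 9.26 on the wild-type arrays (difference 0.16, SE 0.065; limma, unadjusted p = 0.039, adjusted p = 0.9995). Hlf and Tef, the relatives of Dbp, differed by -0.043 (SE 0.14) and -0.10 (SE 0.12), and the lipase gene Pnpla2 by 0.22 (SE 0.13). With the block 2 outputs had an unadjusted p under 0.05, Nfil3 at 0.0329 and Pnpla2 at 0.0372 (limma, adjusted p = 0.545 for each). Over all named clusters the share was 3.43% without the block and 8.81% with it. Of 8 light-input genes 0 had an unadjusted p under 0.05. Creb1, a factor through which light signals reach Per1, differed by 0.0032 (SE 0.098), and its relative Crem by 0.0047 (SE 0.078). Adcy1, an adenylyl cyclase, differed by -0.066 (SE 0.076), and the dopamine receptor gene Drd4 by 0.082 (SE 0.071).

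Per1 is also a target of glucocorticoids and of acute stimuli, so both groups were described beside it. Of 6 measured glucocorticoid-responsive genes 0 had an unadjusted p under 0.05 without the block and 3 had one with it, all higher in the knockout, where 3.43% and 8.81% of all named clusters did in these fits. On average 4 of the 6 lay higher in the knockout, so the list did not move as one. Klf9, a transcription factor gene, read 10.37, 11.02 and 10.97 on the knockout arrays, against 10.36, 10.72 and 10.34 on the wild-type arrays. As for Per1, knockout arrays 2 and 3 were highest and wild-type array 2 came next. The difference of Klf9 was 0.31, with an SE of 0.17 and an unadjusted p of 0.106 without the block, and an unadjusted p of 0.0245 and adjusted p of 0.53 with it (limma). Fkbp5, an immunophilin gene, read 9.55, 9.86 and 9.94 on knockout arrays and 9.55, 9.59 and 9.67 on wild-type arrays. Its difference was 0.18 (SE 0.10), with an unadjusted p of 0.0322 and an adjusted p of 0.545 with the block (limma). Tsc22d3, which encodes the glucocorticoid-induced leucine zipper, differed by -0.038 (SE 0.093), and the kinase gene Sgk1 by 0.059 (SE 0.085).

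Of 10 immediate early genes 0 had an unadjusted p under 0.05 without the block. Egr1 read 8.50, 8.10 and 8.27 on the knockout arrays, against 8.18, 7.79 and 8.18 on the wild-type arrays, lowest in number 2 where Per1 was highest. With the block Egr1 had an unadjusted p of 0.00568 and an adjusted p of 0.514 (limma). Fos, Fosb and Egr2 differed by -0.0029 (SE 0.077), 0.062 (SE 0.089) and -0.039 (SE 0.084).

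Markers of some other tissues and cell types, retinal ones among them, were also high on knockout array 3, one of the arrays high in Per1 and Ciart. Those of the pigment epithelium, of ganglion cells and of hypothalamus and pineal were not, and those of progenitors were highest on knockout array 2. The mean log2 signal of 6 lens markers was 7.70, 7.64 and 8.08 on the knockout arrays, against 7.67, 7.56 and 7.56 on the wild-type arrays, and 5 of 6 lay higher in the knockout on average. That of 5 endothelial markers was 8.78, 8.59 and 8.98 on knockout arrays and 8.63, 8.50 and 8.51 on wild-type arrays, with 4 of 5 higher. That of 4 microglial markers was 7.91, 7.80 and 8.12 on knockout arrays and 7.80, 7.67 and 7.79 on wild-type arrays, with 3 of 4 higher. That of 5 pigment epithelium markers was 7.30, 7.03 and 6.94 on knockout arrays and 7.07, 6.98 and 6.96 on wild-type arrays, highest on knockout array 1 and lowest on knockout array 3, with 4 of 5 higher in the knockout on average. Among retinal cells, 5 photoreceptor precursor markers averaged 10.24, 10.12 and 10.49 on knockout and 10.24, 10.20 and 10.35 on wild-type arrays. The 5 amacrine and horizontal cell markers averaged 9.87, 9.91 and 10.01, against 9.88, 9.90 and 9.91. The 4 ganglion cell markers averaged 11.44, 11.68 and 11.34, against 11.45, 11.57 and 11.53. The 5 progenitor markers averaged 12.25, 12.38 and 12.32, against 12.27, 12.33 and 12.29. Of the lens markers Cryaa, Cryba1, Crybb1 and Cryga were highest on knockout array 3, Gja3 was lowest there, and Mip was neither. No marker can be called absent on these arrays, as no detection call was used, and the part of these tissues in the Per1, Ciart and Bhlhe40 values was not tested. Fewer cells of a type and less RNA per cell cannot be told apart in such whole-tissue samples.

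Genes of like pattern were sought by Pearson's r over the 6 arrays with the mean deviation of 6 of the 10 clock genes, among 260 genes above the median signal that spanned at least 0.5. The 6 were Per1, Per2, Per3, Ciart, Nr1d1 and Dbp. Ciart stands here, and in the r values between clock genes, for its brighter cluster, which lies by identifier among genes of chromosome 10. Cry1 and Cry2, also activated through E-boxes, were left out of the mean. That mean deviation was -0.25, 0.32 and 0.068 on the knockout arrays and -0.062, 0.10 and -0.18 on the wild-type arrays, highest for number 2 in both genotypes. The highest r belonged to Ypel2 (0.957), Sash1 (0.955), Zfp101 (0.946), Pnpla2 (0.943), Spata6 (0.942), Dgke (0.938), Pros1 (0.934) and Spsb1 (0.931). The lowest were those of Kcnv2 (-0.854), a photoreceptor potassium channel subunit gene, Gen1 (-0.85), Slc17a7 (-0.841), which encodes a vesicular glutamate transporter, and Fv1 (-0.839). Of these 12, Slc17a7 read 9.56, 8.93 and 9.46 on the knockout arrays, against 9.75, 9.33 and 9.58 on the wild-type arrays. With 6 arrays that share numbers and genotypes, and genes picked from 260 for the size of r, these values describe the arrays only. Among the clock genes themselves r over the 6 arrays ran from -0.61 for Cry1 with Nr1d1 to 0.87 for Per1 with Clock, and was 0.79 for Per1 with Ciart and 0.85 for Per3 with Dbp.

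**Figure D4:**
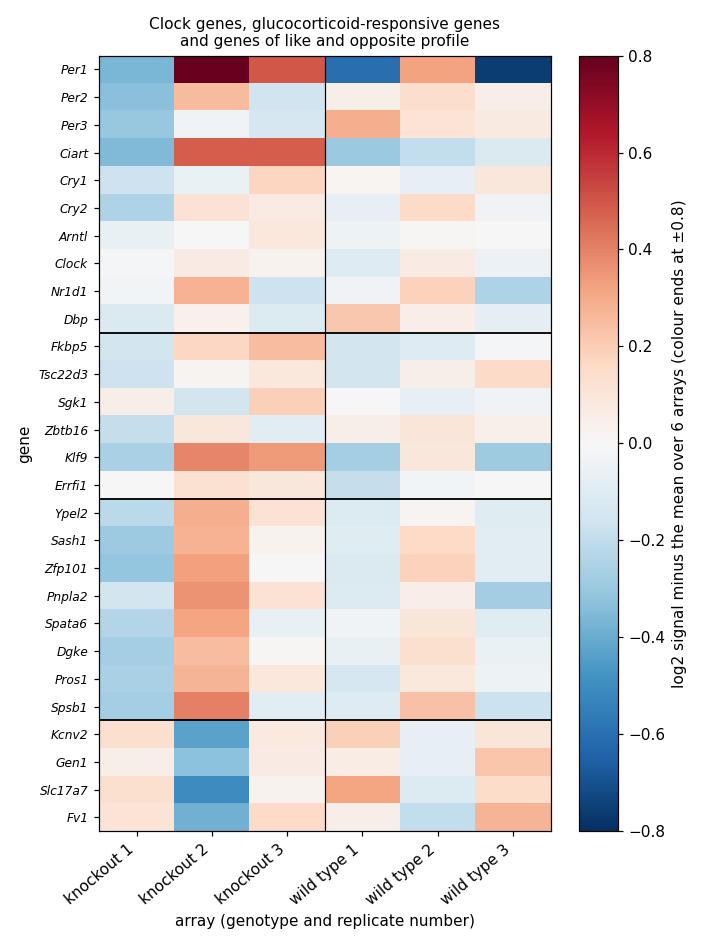
Log2 signal minus the gene's mean over 6 arrays, knockout arrays at the left and wild-type arrays at the right; the blocks from the top are the 10 clock genes, 6 glucocorticoid-responsive genes, the 8 genes with the highest and the 4 with the lowest r to the mean deviation of Per1, Per2, Per3, Ciart, Nr1d1 and Dbp. Per1, Ciart (brighter cluster) and Klf9 are high on knockout arrays 2 and 3, and the lowest block is low on knockout array 2.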

How the data were processed

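RNA of 3 knockout and 3 wild-type samples, 300 ng each, was hybridised to Mouse Gene 1.0 ST arrays, as the labels state. The deposited table holds 1 log2 signal per transcript cluster and array, made by the authors with Affymetrix Expression Console and RMA, with Transcriptome Analysis Console also named, per the submitters' processing notes. RMA sets all arrays to 1 distribution, so a shift shared by most genes is removed. A platform annotation named 1 gene for 21789 of 35557 clusters, several for 1621 and none for 12147, and the 23410 named clusters were tested with no filter on signal.

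Knockout minus wild type was fitted with limma 3.58.1 in R 4.3.3, with Benjamini-Hochberg adjustment over all named clusters and a threshold of 0.05, and the replicate number by a moderated F test with genotype in the model. The code was tested on simulated data. Deviations from the group means correlated at 0.476, 0.485 and 0.455 between same-numbered arrays (numbers from the sample titles), all over 0.1, so results with the number as a block are given where they change a count.

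Members and lists were chosen with earlier results of these data known. From each list up to 4 genes were named, first those with an unadjusted p under 0.05, then those with the widest span of number means. Xist, Eif2s3y and the genes beside the Ciart clusters were chosen after their values were seen. Some list genes are not reported here. Alternatives were the block, median centring, cyclic loess, a variance trend, a filter at the median signal, every row of the table, the other Ciart cluster, the number alone in the model and each array left out, and, added after seeing the data, number 2 left out of both genotypes.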

Additional observations from a re-analysis of the deposited data

How the results depend on the processing

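Clock gene differences between knockout and wild type kept their sign and stayed short of correction in 123 of 130 values under alternatives, and 0 passed it. The block, the variance trend, the signal filter and every row of the table leave the difference itself unchanged, so its sign could not move there. The 7 that changed sign came from leaving out single arrays, where Cry1 ran from -0.12 to 0.048, Cry2 from -0.11 to 0.070, Nr1d1 from -0.063 to 0.17 and Arntl from -0.020 to 0.052. With the replicate number as a block 1 cluster passed correction, and 2063 clusters and 3 clock genes had an unadjusted p under 0.05, against 803 and 1 without it. The 803 were 3.43% of the 23410 named clusters. Without the block that count of clusters was 431 among those above the median signal. Per3 was not tested there, and 0 clock genes had such a p. The count was 1331 when all 35557 rows were tested, and 636 to 1298 with single arrays left out, with 1 to 3 clock genes. The filter tests fewer clusters and the setting with every row tests more, so a lower or higher count there is not by itself a change in share. For the replicate number 3 clusters passed correction, against 1106 among clusters above the median signal, 991 with a variance trend, 1 with every row, 7 with the number alone in the model and 3 to 15 with single arrays left out. The first 2 of these settings called 2 clock genes, Per1 and Nr1d1, and the cause was not tested. Clock genes with an unadjusted p under 0.05 for number were 5, or 2 with every row and 3 to 7 with single arrays left out. Clusters with such a p were 5427 of 23410 (23.2%), or 5433 of all 35557 rows, a lower share. With single arrays left out 3711 to 5213 clusters had such a p. Without number 2 of both genotypes 3 clock genes had an unadjusted p under 0.05 for genotype and 3 for number. So did 706 and 4168 clusters, against 803 and 5427 with all arrays.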
